A study of Gallus gallus with 4 samples.

Results

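The genes described here encode protein phosphatases and their subunits in chicken gonads: the dual-specificity phosphatases (DUSP), the serine/threonine phosphatase catalytic and regulatory subunits (PPP) and the protein tyrosine phosphatases (PTP). They were chosen by symbol, with earlier results of these data known. Taken were probe sets with platform symbols beginning with DUSP and a digit, PPP and a digit from 1 to 6, PTPN or PTPR. PTPRC, the leukocyte antigen, was left out. This gave 242 of the 38382 probe sets tested, which stood for 107 of 13008 genes: 23 DUSP, 52 PPP and 32 PTP genes. A gene with several probe sets is given by its brightest one, that with the highest mean over all 4 arrays.

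Whole ovaries and whole testes came from 17-week-old chickens of inbred CB congenic lines of White Leghorn origin, and no animal was treated per the labels. Total RNA of 4 animals was combined in each pool, and each of 2 ovary pools and 2 testis pools was hybridised to 1 Affymetrix Chicken Genome Array. Values are the log2 expression values the authors deposited, differences are log2 testis minus ovary, and "called" means an adjusted p under 0.05 in limma over all 38382 probe sets. Each group had n = 2 pools, the p-values measure the spread between pools and not between single animals, and SE is that of the difference. In whole organs, fewer cells of a type and less RNA per cell cannot be told apart.

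Protein phosphatases remove the phosphate groups that kinases add. Classical MAP kinase phosphatases, part of the DUSP class, inactivate ERK, JNK and p38 kinases by removing phosphate from both threonine and tyrosine, and many of them are transcribed in response to the same kinases. PPP enzymes consist of a few catalytic subunits that gain their specificity from a large set of regulatory subunits, and in mammals a PP1 catalytic isoform is needed for sperm formation. PTP enzymes act on phosphotyrosine, in the cytoplasm (PTPN) or as transmembrane receptors (PTPR).

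The DUSP, PPP and PTP classes all had members called in both directions. In what follows, testis-higher and ovary-higher genes are those called with that direction, and over all genes 53.0% were called, 24.3% testis-higher and 28.7% ovary-higher. Of 23 DUSP genes, 8 were testis-higher and 10 ovary-higher. The PPP class had 12 testis-higher and 19 ovary-higher genes of 52, and the PTP class 5 and 11 of 32. As shares, these were 34.8% and 43.5% of DUSP, 23.1% and 36.5% of PPP and 15.6% and 34.4% of PTP genes. With a change of at least 2-fold as a further condition, 6 and 10 DUSP, 9 and 13 PPP and 3 and 9 PTP genes were called, where all genes gave 18.4% and 22.0%, together 40.4%. The pools of the organs did not overlap for 86 of 107 members, and for 81.2% of all genes. Median differences lay near 0 in each class, at -0.04 for DUSP, -0.06 for PPP and -0.08 for PTP genes, beside -0.01 over all genes. The class medians include members at background, and with dim probe sets left out of the fit they were -1.86, -0.23 and -0.42. The median over all genes with that filter is not given here, so these values have no such comparison. The span ran from -6.48 to 10.60 in the DUSP class, from -7.16 to 9.85 in the PPP class and from -4.54 to 3.63 in the PTP class. No test compares the classes, because the members were chosen with earlier results of these data known. Leaving out testis pool 1 gave 4 testis-higher DUSP, 6 testis-higher and 9 ovary-higher PPP and 6 ovary-higher PTP genes, and leaving out testis pool 2 gave 4, 6, 9 and 5. Without either ovary pool 6 PTP genes were higher in ovary.

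**Figure D1:**
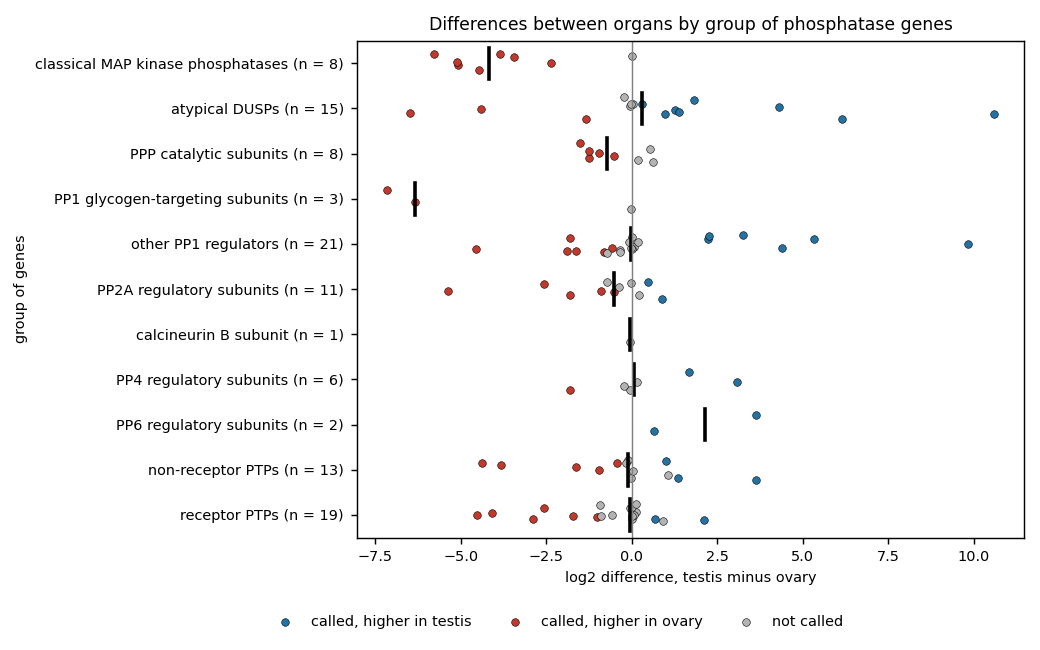
Each point is 1 gene, placed at its log2 difference (testis minus ovary) on the horizontal axis within its group on the vertical axis, and a black bar marks each group's median. Classical MAP kinase phosphatases lie at 0 (DUSP8) or left of it with a median of -4.17, while the atypical DUSPs spread from -6.48 to 10.60.

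The arrays were alike in scale, with 55.1% to 55.7% of probe sets above a background level of log2 3.32. That level is the 99th percentile of 689 probe sets for other sequences. Oocyte markers were higher in ovary for 7 of 7 measured (mean log2 over the list 10.2 in ovary and 2.82 to 2.92 in testis). Spermatid markers were higher in testis for 10 of 11 (3.26 to 3.28 in ovary and 12.5 in testis). The marker lists were chosen with earlier results of these data known, so they are no independent check of the organ labels. ODF2, the spermatid marker not called, was bright in both organs (9.69 and 9.66 in ovary and 9.85 and 10.17 in testis). Endothelium markers were higher in ovary for 5 of 11 and in testis for 1 (6.67 to 6.83 in ovary and 4.8 to 4.92 in testis), with ESAM at background in all pools. Neuroendocrine and chromaffin markers were higher in ovary for 8 of 11 and in testis for 2 (6.97 to 7.29 in ovary and 4.09 to 4.19 in testis), and none was at background in all pools. Leukocyte markers divided, with 6 of 14 higher in ovary and 4 in testis (5.7 to 5.75 in ovary and 5.74 to 5.85 in testis), and with CD4, CD79B and TLR4 at background in all pools. Of 5 smooth muscle markers 0 were called by limma, also 0 at an unadjusted p under 0.05 (7.01 to 7.53 in ovary and 7.66 to 7.75 in testis), and ACTA2 was at background in all pools. The part of these cell types in the results below was not tested.

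Among the classical MAP kinase phosphatases, 7 of 8 were ovary-higher and 0 testis-higher (limma, also 0 at an unadjusted p under 0.05), with a median difference of -4.17. Over all genes, 28.7% were ovary-higher and 24.3% testis-higher. DUSP1, a nuclear phosphatase known in mammals as an immediate early gene, stood at log2 12.63 and 12.40 in the ovary pools and 6.80 and 6.63 in the testis pools, a difference of -5.80 (SE 0.13, adjusted p = 0.00128). Its ovary pools were thus 55.6-fold brighter on average. DUSP6, a cytoplasmic phosphatase selective for ERK in mammals, stood at log2 10.17 and 10.92 in the ovary pools and 5.47 and 5.37 in the testis pools, a difference of -5.13 (SE 0.33, adjusted p = 0.00571). DUSP4, a nuclear phosphatase, had values of 7.59 and 8.35 in ovary and 2.56 and 3.21 in testis, with both testis pools at or below background, so that ovary was at least 25-fold brighter (adjusted p = 0.00931). DUSP5, the other nuclear phosphatase of the ERK pathway, was at background in testis too (6.50 and 6.64 in ovary and 2.76 and 2.65 in testis) and at least 9.49-fold brighter in ovary (adjusted p = 0.00121). These 4 genes were measured well above background in both ovary pools. Of 3 DUSP4 probe sets 2 were called, and of 2 DUSP5 probe sets 1, all higher in ovary.

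DUSP16 and DUSP10, which act mainly on JNK and p38 in mammals, followed the same direction by their brightest probe sets. Of 3 probe sets of DUSP16 and 2 of DUSP10, only 1 of each was called. DUSP16 stood at log2 7.83 and 7.77 in the ovary pools and 3.09 and 3.56 in the testis pools, a difference of -4.48 (SE 0.20, adjusted p = 0.00328), with 1 of 2 testis pools above background. DUSP10 stood at log2 9.40 and 9.61 in the ovary pools and 6.30 and 5.79 in the testis pools, a difference of -3.46 (SE 0.23, adjusted p = 0.00632). DUSP7, a cytoplasmic ERK phosphatase, showed the smallest called difference of the group, -2.37 (SE 0.087, adjusted p = 0.00243), with 7.89 and 7.71 in ovary and 5.39 and 5.48 in testis. DUSP8 was at background in all pools (3.29 and 3.28 in ovary and 3.27 and 3.29 in testis), so that no level of it was measured in either organ. The calls of DUSP6 and DUSP4 were lost on omission of testis pool 1 (adjusted p = 0.0816 and 0.0884) or testis pool 2 (0.0836 and 0.0788). With the probe sets of a gene averaged, DUSP7 had a difference of -1.26 (adjusted p = 0.0831), and 1 of its 3 probe sets was called.

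Atypical DUSPs, which lack the kinase-binding domain of the classical group, went mostly the other way, with 8 of 15 higher in testis and 3 in ovary. DUSP21, in mammals transcribed mainly in testis, stood at log2 2.69 and 2.41 in the ovary pools and 13.23 and 13.07 in the testis pools. Both ovary pools were below background, so that testis was at least 908-fold brighter (adjusted p = 0.000702). DUSP29, known from mammalian skeletal muscle, was likewise below background in ovary, with 2.65 and 2.65 in ovary and 8.74 and 8.88 in testis, and at least 44.9-fold brighter in testis (adjusted p = 0.000517). DUSP15, a lipid-anchored phosphatase, stood at log2 3.49 and 3.64 in the ovary pools and 8.06 and 7.71 in the testis pools, a difference of 4.32 (SE 0.16, adjusted p = 0.00247), where the ovary values lay just above background. These 3 genes are each measured by 1 probe set. None had overlapping pools, which held for 81.2% of all genes.

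Smaller testis-higher differences were found for DUSP12, which has a zinc-binding domain and takes part in ribosome assembly in yeast (6.51 and 6.83 in ovary and 8.60 and 8.36 in testis, 1.81, adjusted p = 0.0122). They were also found for the small phosphatase DUSP23 (7.71 and 7.65 in ovary and 9.18 and 8.95 in testis, 1.38, adjusted p = 0.008) and for DUSP19 (7.36 and 7.48 in ovary and 8.84 and 8.52 in testis, 1.26, adjusted p = 0.0177). DUSP11RC1I stood at 6.56 and 6.44 in ovary and 7.53 and 7.42 in testis (0.98, adjusted p = 0.0069), and 1 of its 2 probe sets was called. DUSP3, known in mammals as VHR, was bright in both organs (10.31 and 10.40 in ovary and 10.68 and 10.60 in testis), and its difference of 0.29 (SE 0.053, adjusted p = 0.0452) was the smallest called in the class. The DUSP3 call ended with an intensity trend in the variance (adjusted p = 0.0536), with robust moderation (0.0532), with median centring (0.242), with a floor at background (0.0731) and without dim probe sets (0.0827).

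Higher in ovary among the atypical DUSPs were DUSP26, DUSP14 and DUSP22. DUSP26, in mammals a phosphatase of brain and neuroendocrine tissue, stood at log2 11.10 and 11.12 in the ovary pools and 4.40 and 4.85 in the testis pools, a difference of -6.48 (SE 0.19, adjusted p = 0.00186), and its second probe set gave -7.50, adjusted p = 0.000405. Of the neuroendocrine and chromaffin markers, 8 of 11 were ovary-higher in the same pools, while PCSK1 and SCG5 were testis-higher, and their part in the DUSP26 difference was not tested. DUSP14, a small phosphatase, stood at log2 12.96 and 12.95 in the ovary pools and 8.62 and 8.45 in the testis pools, a difference of -4.42 (SE 0.073, adjusted p = 0.000886). DUSP22, which acts in JNK signalling in mammals, had 10.18 and 10.39 in ovary and 8.80 and 9.09 in testis, a difference of -1.34 (SE 0.15, adjusted p = 0.0165). Only 1 of 2 DUSP22 probe sets was called. DUSP13, DUSP22AL, DUSP27 and DUSP28 were at background in all pools, and DUSP28 was called ovary-higher without ovary pool 1 (adjusted p = 0.0349). The calls of DUSP12 and DUSP11RC1I were lost on omission of testis pool 1 (adjusted p = 0.108 and 0.0714) or testis pool 2 (0.0937 and 0.0656). The calls of DUSP19 and DUSP3 were lost on omission of any single pool (adjusted p = 0.0526 to 0.0729 and 0.0954 to 0.197). The call of DUSP22 was lost on omission of ovary pool 2 (adjusted p = 0.0612), testis pool 1 (0.0945) or testis pool 2 (0.0775).

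**Figure D2:**
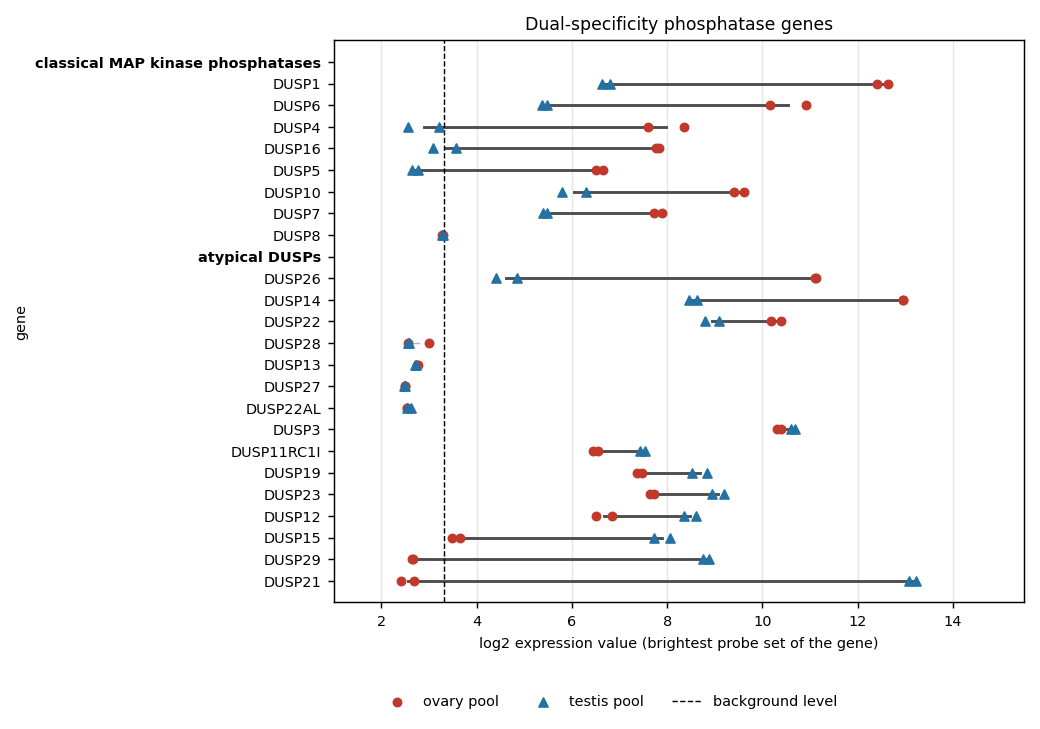
Points show the log2 value of each DUSP gene (vertical axis, grouped and sorted by difference) in each ovary pool (red circles) and testis pool (blue triangles). Lines join the organ means, thick where called, and the dashed line is the background level of log2 3.32. The 7 measured classical phosphatases have their ovary pools to the right, while DUSP21 spans from below background in ovary to log2 13.07 and 13.23 in testis.

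The PPP catalytic subunits differed less, with 5 of 8 called higher in ovary and 0 in testis (limma, 1 at an unadjusted p under 0.05), and with differences from -1.52 to 0.63. All genes gave 28.7% higher in ovary and 24.3% in testis. PPP3CA, a catalytic subunit of the calcium-activated phosphatase calcineurin, stood at log2 10.32 and 10.68 in the ovary pools and 8.84 and 9.14 in the testis pools, a difference of -1.52 (SE 0.20, adjusted p = 0.0224). PPP3CB, the other calcineurin catalytic gene measured, stood at log2 8.88 and 9.01 in the ovary pools and 7.59 and 7.78 in the testis pools, a difference of -1.26 (SE 0.10, adjusted p = 0.00889). PPP6C, the PP6 catalytic subunit, had 11.31 and 11.07 in ovary and 10.03 and 9.83 in testis, a difference of -1.26 (SE 0.13, adjusted p = 0.0148). All 3 were at least 2-fold brighter in ovary by their brightest probe sets. For PPP3CB 1 of 2 probe sets was called, for PPP3CA 4 of 5 and for PPP6C 2 of 2. PPP2CA, the alpha isoform of the PP2A catalytic subunit, had 12.90 and 13.13 in ovary and 12.04 and 12.08 in testis and a difference of -0.95 (SE 0.10, adjusted p = 0.0147). PPP2CB, the beta isoform, had overlapping pools (11.20 and 10.98 in ovary and 11.40 and 11.15 in testis) and a difference of 0.18 (SE 0.14, adjusted p = 0.481), with a 95% interval of -0.29 to 0.66.

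The PP1 catalytic isoforms were bright in both organs. PPP1CC, whose isoform is needed for sperm formation in mice, stood at log2 11.62 and 11.71 in the ovary pools and 11.21 and 11.10 in the testis pools, a difference of -0.51 (SE 0.062, adjusted p = 0.0192), and so was 1.42-fold higher in ovary. PPP1CA stood at log2 11.84 and 11.47 in the ovary pools and 12.30 and 12.11 in the testis pools (0.55, adjusted p = 0.14, 95% interval -0.05 to 1.14). PPP1CB stood at log2 12.28 and 12.54 in the ovary pools and 12.90 and 13.18 in the testis pools (0.63, adjusted p = 0.0942, 95% interval 0.07 to 1.19). For PPP1CA and PPP1CB both testis pools were above both ovary pools, without passing the test. The pools of the organs did not overlap for 81.2% of all genes. The dimmer probe set of PPP1CB was called higher in testis, with log2 11.05 and 10.93 in ovary and 12.28 and 12.29 in testis (1.30, adjusted p = 0.00304). With dim probe sets left out of the fit, adjusted p for PPP1CB was 0.0374, and with its probe sets averaged the difference was 0.96 (adjusted p = 0.00654). For PPP2CA, averaging gave -0.22 (adjusted p = 0.24). The call of PPP3CA was lost on omission of ovary pool 2 (adjusted p = 0.0565), testis pool 1 (0.148) or testis pool 2 (0.118). The calls of PPP3CB, PPP6C and PPP2CA were lost on omission of testis pool 1 (adjusted p = 0.0657, 0.0985 and 0.139) or testis pool 2 (0.058, 0.114 and 0.129). The call of PPP1CC was lost on omission of any single pool (adjusted p = 0.0542 to 0.113).

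Regulators of PP1 held the widest differences of the PPP class, in both directions. Of the 3 glycogen-targeting subunits, which bring PP1 to glycogen and favour its synthesis, 2 were higher in ovary and 0 in testis. Among all genes, 28.7% were ovary-higher and 24.3% testis-higher. PPP1R3B stood at log2 12.28 and 12.37 in the ovary pools and 5.07 and 5.25 in the testis pools, so that ovary was 143-fold brighter (-7.16, adjusted p = 0.000655). PPP1R3C stood at log2 9.09 and 9.07 in the ovary pools and 3.11 and 2.39 in the testis pools, with both testis pools below background, and was at least 54.1-fold brighter in ovary (adjusted p = 0.00364). Both genes had a second probe set called in the same direction (-5.58, adjusted p = 0.00634 for PPP1R3B and -4.72, adjusted p = 0.00118 for PPP1R3C). For PPP1R3C these were 2 of 4 probe sets, and the others were not called. PPP1R3D was at background in all pools.

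Among the other 21 PP1 regulators, 6 were testis-higher and 6 ovary-higher, 28.6% each, near the 24.3% and 28.7% of all genes. PPP1R42, in mammals a leucine-rich repeat protein of testis that binds PP1, stood at log2 2.87 and 2.93 in the ovary pools and 12.61 and 12.90 in the testis pools, and testis was at least 691-fold brighter (adjusted p = 0.0007). Its ovary pools were below background. PPP1R9A, the actin-binding scaffold neurabin, stood at log2 2.76 and 3.99 in the ovary pools and 8.57 and 8.83 in the testis pools, a difference of 5.32 (SE 0.54, adjusted p = 0.0132), with 1 of 2 ovary pools above background. Its difference was 5.93 without ovary pool 2 and 4.70 without ovary pool 1. PPP1R17, a PP1 and PP2A inhibitor known from the mammalian cerebellum, was below background in ovary (2.37 and 2.38 in ovary and 7.00 and 6.57 in testis) and at least 11-fold brighter in testis (adjusted p = 0.0029).

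The remaining testis-higher PP1 regulators were bright in both organs. PPP1R2, the inhibitor-2 gene, stood at log2 9.43 and 9.51 in the ovary pools and 12.76 and 12.69 in the testis pools, a difference of 3.25 (SE 0.051, adjusted p = 0.000832), or 9.53-fold. PPP1R7, which encodes SDS22, a partner needed for the assembly of PP1, had 12.10 and 12.05 in ovary and 14.32 and 14.38 in testis, a difference of 2.27 (SE 0.036, adjusted p = 0.000837). PPP1R13B, which encodes the p53-binding protein ASPP1, had 10.56 and 10.70 in ovary and 12.77 and 12.93 in testis, a difference of 2.22 (SE 0.091, adjusted p = 0.00284). A second probe set of PPP1R13B was called in the opposite direction, with log2 11.67 and 11.70 in ovary and 11.23 and 10.98 in testis (-0.58, adjusted p = 0.045). The pools of the organs did not overlap for any of these 3 genes, nor for 81.2% of all genes.

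Toward ovary, PPP1R14C, an inhibitor of PP1 that is active when phosphorylated, stood at log2 8.88 and 9.12 in the ovary pools and 4.60 and 4.29 in the testis pools, a difference of -4.55 (SE 0.17, adjusted p = 0.00243). PPP1R16B, a PP1 targeting subunit of endothelial cells in mammals, was dim in ovary and below background in testis (4.42 and 4.94 in ovary and 2.86 and 2.70 in testis), so that ovary was at least 2.56-fold brighter (adjusted p = 0.0195). Of 11 endothelium markers, 5 were called ovary-higher in the same pools, PECAM1 was testis-higher and 5 were not called. As shares, 45.5% were ovary-higher and 9.09% testis-higher, beside 28.7% and 24.3% of all genes. The part of these markers was not tested. PPP1R15B, which brings PP1 to the translation factor eIF2 alpha, had 11.89 and 11.93 in ovary and 10.06 and 10.12 in testis, a difference of -1.82 (SE 0.036, adjusted p = 0.0011). PPP1R19L had 10.19 and 10.09 in ovary and 8.45 and 8.54 in testis (-1.65, adjusted p = 0.00247) and the endosomal PPP1R21 had 10.90 and 10.78 in ovary and 10.08 and 9.99 in testis (-0.80, adjusted p = 0.00858), each with all its probe sets called in that direction. PPP1R8, a nuclear inhibitor of PP1, had a small difference by its brightest probe set, -0.58, adjusted p = 0.00606. With a floor at background the difference of PPP1R16B was -1.36 (adjusted p = 0.067).

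The myosin phosphatase targeting subunit genes were not called by their brightest probe sets. PPP1R12A stood at log2 10.38 and 10.37 in the ovary pools and 10.35 and 10.39 in the testis pools (-0.0014, adjusted p = 0.985, 95% interval -0.09 to 0.08). Of its 6 probe sets 1 was testis-higher, and the mean of its probe sets gave 0.25 (adjusted p = 0.0181). PPP1R12B, the form of striated muscle, had 4.49 and 4.42 in ovary and 4.55 and 4.50 in testis (0.07, adjusted p = 0.365). PPP1R1A, the inhibitor-1 gene, lay around background (3.14 and 3.31 in ovary and 3.50 and 3.32 in testis, 0.19, adjusted p = 0.346). PPP1R1C stood at 4.79 and 3.37 in ovary and 3.35 and 3.36 in testis, where 1 ovary pool was brighter than the others (-0.72, adjusted p = 0.511), and PPP1RL had overlapping pools (8.80 and 7.89 in ovary and 8.02 and 8.02 in testis, -0.33, adjusted p = 0.646). With ovary pool 2 omitted, PPP1R1C (adjusted p = 0.0106) and PPP1RL (0.0174) were called ovary-higher. PPP1R1B, PPP1R14D, PPP1R19B and PPP1R27 were at background in all pools, and PPP1R1B was then called as well (0.0202). The calls of PPP1R9A, PPP1R16B and PPP1R21 were lost on omission of testis pool 1 (adjusted p = 0.125, 0.149 and 0.0786) or testis pool 2 (0.129, 0.156 and 0.0871).

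**Figure D3:**
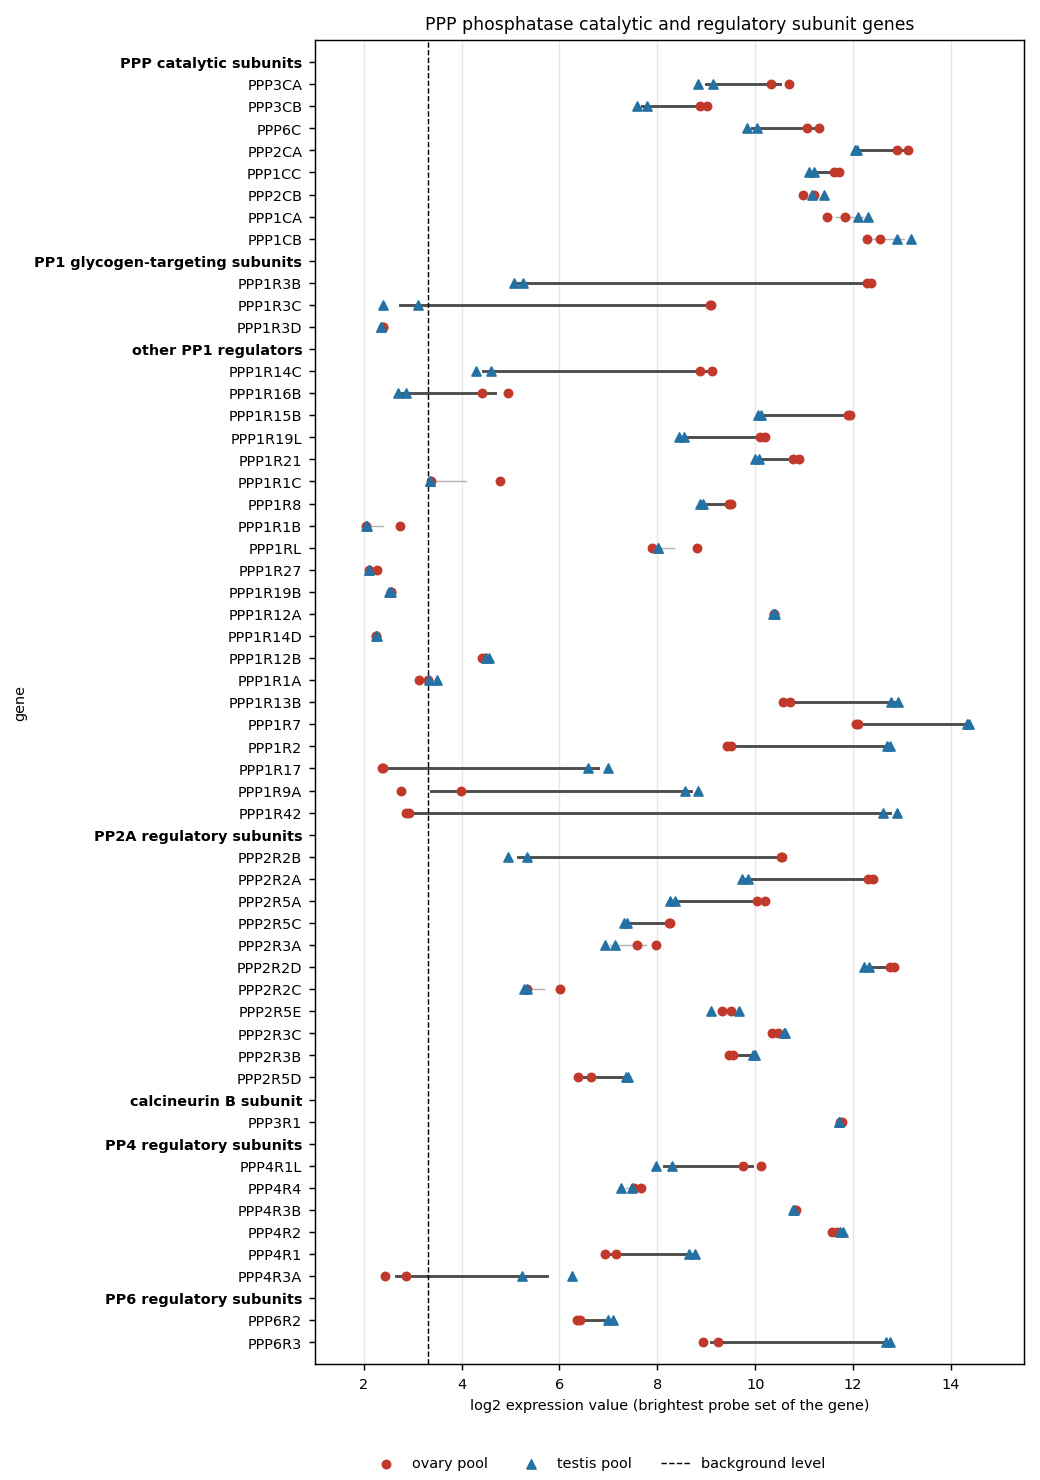
Points show the log2 value of each PPP gene (vertical axis, grouped by complex and sorted by difference) in each ovary pool (red circles) and testis pool (blue triangles), with lines between the organ means, thick where called, and a dashed line at the background level of log2 3.32. The catalytic subunits have short lines, while PPP1R3B, PPP1R3C, PPP1R42 and PPP2R2B have long ones.

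PP2A gains its targets from B subunits, and of 11 measured PP2A regulatory genes 5 were ovary-higher and 2 testis-higher. As shares, these were 45.5% and 18.2%, beside 28.7% and 24.3% of all genes. The B55 genes gave the widest differences. PPP2R2B stood at log2 10.53 and 10.54 in the ovary pools and 5.33 and 4.96 in the testis pools, so that ovary was 41.9-fold brighter (-5.39, adjusted p = 0.00188). PPP2R2A stood at log2 12.40 and 12.30 in the ovary pools and 9.86 and 9.72 in the testis pools, a difference of -2.56 (SE 0.074, adjusted p = 0.00178). PPP2R2D differed little (12.76 and 12.84 in ovary and 12.33 and 12.22 in testis, -0.52, adjusted p = 0.0184), and PPP2R2C was not called (5.34 and 6.01 in ovary and 5.28 and 5.34 in testis, -0.37, adjusted p = 0.483). Without ovary pool 1 PPP2R2C was called ovary-higher (adjusted p = 0.0266). The 3 B55 genes called with all pools were higher in ovary, with 2 of 4 probe sets called for PPP2R2A and 2 of 5 for PPP2R2D.

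The B56 genes of PP2A divided. PPP2R5A stood at log2 10.04 and 10.20 in the ovary pools and 8.26 and 8.35 in the testis pools, a difference of -1.81 (SE 0.084, adjusted p = 0.00342), and PPP2R5C at log2 8.24 and 8.25 in the ovary pools and 7.33 and 7.38 in the testis pools, a difference of -0.89 (SE 0.03, adjusted p = 0.00215). All 4 probe sets of PPP2R5C were called higher in ovary. PPP2R5D was higher in testis (6.38 and 6.64 in ovary and 7.41 and 7.36 in testis, 0.88, adjusted p = 0.0215), and PPP2R5E had overlapping pools (9.32 and 9.51 in ovary and 9.09 and 9.67 in testis, -0.04, adjusted p = 0.956) while its second probe set was called higher in ovary (-0.97, adjusted p = 0.00119). Among the B'' genes, PPP2R3B was testis-higher, by 0.48 (SE 0.048, adjusted p = 0.0132). PPP2R3A (-0.74, adjusted p = 0.0831) and PPP2R3C (0.20, adjusted p = 0.0864) were not called, although 3 of 6 probe sets of PPP2R3A were called higher in ovary. For PPP2R3A adjusted p was 0.0293 with dim probe sets left out, 0.0387 with median centring and 0.0453 with its probe sets averaged, and for PPP2R3B it was 0.0512 with median centring. The call of PPP2R2D was lost on omission of any single pool (adjusted p = 0.0617 to 0.0919). The calls of PPP2R5A, PPP2R5D and PPP2R3B were lost on omission of testis pool 1 (adjusted p = 0.0543, 0.172 and 0.117) or testis pool 2 (0.053, 0.156 and 0.106).

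PPP3R1, the calcineurin B subunit, was not called by its brightest probe set, with 11.77 and 11.73 in ovary and 11.71 and 11.70 in testis (-0.05, adjusted p = 0.323, 95% interval -0.13 to 0.04). Its second probe set was higher in testis, with log2 9.22 and 9.21 in ovary and 11.60 and 11.63 in testis (2.40, adjusted p = 0.000508), so that the probe sets of this gene disagree. Of 6 PP4 regulatory genes, 2 were testis-higher and 1 ovary-higher (33.3% and 16.7%, beside 24.3% and 28.7% of all genes). PPP4R3A was below background in ovary and measured in testis (2.44 and 2.87 in ovary and 5.23 and 6.25 in testis), at least 5.33-fold brighter there (adjusted p = 0.0307). PPP4R1 stood at log2 6.93 and 7.16 in the ovary pools and 8.65 and 8.78 in the testis pools, a difference of 1.67 (SE 0.11, adjusted p = 0.0061), whereas PPP4R1L had 9.75 and 10.11 in ovary and 7.96 and 8.29 in testis and was higher in ovary by 3.48-fold (-1.80, adjusted p = 0.0175). PPP4R2 (0.15, adjusted p = 0.135), PPP4R3B (-0.04, adjusted p = 0.325) and PPP4R4 (-0.23, adjusted p = 0.298) were not called by their brightest probe sets. For PPP4R2, however, 2 of 3 probe sets were testis-higher, and the mean of its probe sets gave 1.09 (adjusted p = 0.0217).

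Both PP6 regulatory genes were higher in testis, as were 24.3% of all genes. PPP6R3 stood at log2 9.23 and 8.94 in the ovary pools and 12.68 and 12.76 in the testis pools, a difference of 3.63 (SE 0.13, adjusted p = 0.00235), or 12.4-fold. Of its 4 probe sets 3 gave this direction at 3.52 to 3.63, while the fourth had log2 10.81 and 10.95 in ovary and 10.55 and 10.60 in testis (-0.31, adjusted p = 0.0659). PPP6R2 differed by 0.64 (SE 0.056, adjusted p = 0.00993), with 6.43 and 6.35 in ovary and 6.98 and 7.09 in testis, and 1 of its 4 probe sets was called. The catalytic subunit PPP6C, described above, was higher in ovary in the same pools. With a floor at background the difference of PPP4R3A was 2.42 (adjusted p = 0.078), and with its probe sets averaged that of PPP6R2 was 0.29 (adjusted p = 0.0578). The call of PPP4R3A was lost on omission of any single pool (adjusted p = 0.068 to 0.108). The calls of PPP4R1 and PPP6R2 were lost on omission of testis pool 1 (adjusted p = 0.0731 and 0.0592) or testis pool 2 (0.0788 and 0.0692). The call of PPP4R1L was lost on omission of ovary pool 2 (adjusted p = 0.0501), testis pool 1 (0.123) or testis pool 2 (0.101).

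Of 13 non-receptor PTP genes, 3 were testis-higher and 5 ovary-higher (23.1% and 38.5%, beside 24.3% and 28.7% of all genes). PTPN5, known as STEP, a phosphatase of MAP kinases in mammalian brain, stood at log2 10.67 and 10.71 in the ovary pools and 14.21 and 14.43 in the testis pools, a difference of 3.63 (SE 0.098, adjusted p = 0.00164). That probe set stood alone. The other 4 of PTPN5 were not called, and 3 of those were bright in both organs, one of them with log2 11.05 and 10.93 in ovary and 10.87 and 11.06 in testis (-0.02, adjusted p = 0.921). PTPN4, a FERM and PDZ domain phosphatase, was higher in testis (8.47 and 8.80 in ovary and 9.99 and 10.00 in testis, 1.36, adjusted p = 0.0142), as was PTPN2, a nuclear phosphatase of JAK and STAT signalling (10.53 and 10.61 in ovary and 11.52 and 11.61 in testis, 0.99, adjusted p = 0.00415). For both, both probe sets were called in that direction.

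Toward ovary, PTPN13, a large PDZ domain phosphatase, stood at log2 10.11 and 10.26 in the ovary pools and 6.05 and 5.59 in the testis pools, a difference of -4.37 (SE 0.21, adjusted p = 0.00352), or 20.7-fold. Only 1 of 4 PTPN13 probe sets was called. PTPN21, a FERM domain phosphatase, had 7.53 and 7.33 in ovary and 3.08 and 4.10 in testis, a difference of -3.84 (SE 0.45, adjusted p = 0.0174), with 1 of 2 testis pools above background. PTPN1, which acts on the insulin receptor, had 7.53 and 7.35 in ovary and 5.51 and 6.12 in testis, a difference of -1.63 (SE 0.27, adjusted p = 0.0358). PTPN3, the close relative of PTPN4, differed by -0.97 (SE 0.092, adjusted p = 0.0117) and thus in the opposite direction to it, with 3 of 3 probe sets called. PTPN12, a phosphatase of focal adhesions, differed by -0.42 (SE 0.05, adjusted p = 0.0176), with 1 of 2 probe sets called.

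PTPN11, which encodes SHP2 and carries growth factor signals to the ERK pathway, had overlapping pools (9.69 and 9.62 in ovary and 9.47 and 9.64 in testis, -0.10, adjusted p = 0.509, 95% interval -0.37 to 0.18). PTPN6, which encodes the SHP1 of blood cells, was brighter in both testis pools without passing (5.94 and 6.01 in ovary and 7.32 and 6.75 in testis, 1.06, adjusted p = 0.0722), and adjusted p was 0.0203 with dim probe sets left out and 0.035 with median centring, and 0.0351 without testis pool 2. The pools of the organs did not overlap for PTPN6, nor for 81.2% of all genes. PTPN7, another blood cell phosphatase, lay around background (3.34 and 3.51 in ovary and 3.16 and 3.37 in testis, -0.16, adjusted p = 0.466). Leukocyte markers were called in both directions, and their part in these values was not tested. PTPN9 was not called (0.05, adjusted p = 0.55) and PTPN14 was at background in all pools. Adjusted p for PTPN1 was 0.0671 with a floor at background, and with its probe sets averaged PTPN12 had a difference of -0.22 (adjusted p = 0.0737). The calls of PTPN4 and PTPN3 were lost on omission of testis pool 1 (adjusted p = 0.136 and 0.122) or testis pool 2 (0.133 and 0.119). The call of PTPN2 was lost on omission of testis pool 2 (adjusted p = 0.0503). The call of PTPN21 was lost on omission of ovary pool 1 (adjusted p = 0.0733) or ovary pool 2 (0.069). The calls of PTPN1 and PTPN12 were lost on omission of any single pool (adjusted p = 0.0546 to 0.126 and 0.0635 to 0.0824).

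Of 19 receptor PTP genes, 2 were higher in testis, 6 in ovary and 11 were not called. Shares called were 10.5% in testis and 31.6% in ovary, beside 24.3% and 28.7% of all genes. The MAM domain receptors, which bind to their own kind on neighbouring cells, were higher in ovary for 3 of 4. PTPRK stood at log2 9.64 and 9.84 in the ovary pools and 5.22 and 5.19 in the testis pools, a difference of -4.54 (SE 0.088, adjusted p = 0.00108), or 23.2-fold, and all 4 of its probe sets were called in that direction. PTPRT stood at log2 7.84 and 8.22 in the ovary pools and 3.85 and 4.02 in the testis pools, a difference of -4.09 (SE 0.18, adjusted p = 0.00314). PTPRM stood at log2 8.34 and 8.47 in the ovary pools and 6.91 and 6.46 in the testis pools, a difference of -1.72 (SE 0.20, adjusted p = 0.0171), and 6 of its 8 probe sets were called in that direction, 1 of them below background in both organs. PTPRU, the other gene of that group, was at background in all pools, and was called testis-higher without testis pool 2 (adjusted p = 0.0452).

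Among receptors with fibronectin repeats, PTPRJ stood at log2 6.15 and 6.92 in the ovary pools and 3.71 and 3.62 in the testis pools, a difference of -2.88 (SE 0.33, adjusted p = 0.017). Only 1 of 2 PTPRJ probe sets was called. PTPRB, the endothelial receptor that restrains TIE2 signalling in mammals, was not called, with 7.07 and 7.01 in ovary and 5.71 and 6.51 in testis (-0.93, adjusted p = 0.176). With testis pool 2 omitted PTPRB was called ovary-higher (adjusted p = 0.0311). Of 11 endothelium markers, 5 were ovary-higher in the same pools, PECAM1 was testis-higher (0.22, adjusted p = 0.0276) and 5 were not called, TEK (-0.74, adjusted p = 0.0707) and TIE1 (-0.84, adjusted p = 0.297) among them. Their part in the PTPRB, PTPRJ and PTPRM values was not tested. PTPRO, PTPRQ and PTPRVP were at background in all pools. PTPRZ1, a receptor of the growth factors pleiotrophin and midkine, was higher in ovary, with 6.36 and 6.16 in ovary and 3.99 and 3.36 in testis and a difference of -2.58 (SE 0.28, adjusted p = 0.0152). For PTPRZ1 too, 1 of 2 probe sets was called. PTPRG, its relative with a carbonic anhydrase-like domain, was testis-higher (8.32 and 8.52 in ovary and 9.17 and 9.05 in testis), by 0.69 (SE 0.098, adjusted p = 0.0263).

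The LAR type receptors, which act in cell adhesion and nerve growth, did not move together. PTPRF was higher in ovary (11.91 and 11.97 in ovary and 10.88 and 10.95 in testis, -1.02, adjusted p = 0.00307), with 2 of 5 probe sets called. PTPRS was brighter in both testis pools without passing (8.50 and 8.06 in ovary and 9.27 and 9.11 in testis, 0.91, adjusted p = 0.0665), and adjusted p was 0.0203 with dim probe sets left out, 0.0397 with an intensity trend, 0.0193 with median centring and 0.0333 without ovary pool 1. Of 10 PTPRS probe sets only 1, not the brightest, was called, higher in testis. The pools did not overlap for the brightest one, nor for 81.2% of all genes. PTPRD, the only Z-linked member, had overlapping pools (4.34 and 4.35 in ovary and 4.25 and 4.45 in testis, 0.00, adjusted p = 0.992, 95% interval -0.30 to 0.30). PTPRA, a short receptor that activates SRC kinases, was higher in testis, with log2 9.31 and 9.32 in the ovary pools and 11.37 and 11.49 in the testis pools, a difference of 2.12 (SE 0.053, adjusted p = 0.0015). PTPRE, its relative, was not called (6.48 and 6.50 in ovary and 6.25 and 6.98 in testis, 0.13, adjusted p = 0.847), but was testis-higher without testis pool 1 (adjusted p = 0.0325).

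PTPRN2, a receptor of secretory granules, was not called (9.59 and 9.76 in ovary and 8.93 and 9.27 in testis, -0.57, adjusted p = 0.106), although adjusted p was 0.045 with dim probe sets left out and 0.0458 with median centring. PTPRN, its partner in neuroendocrine granules, was dim and not called (4.18 and 4.16 in ovary and 4.08 and 4.16 in testis, -0.05, adjusted p = 0.496). Of the 11 neuroendocrine and chromaffin markers, 8 were ovary-higher in the same pools, from SCG2 (-1.89, adjusted p = 0.0047) to CHGA (-9.82, adjusted p = 0.000932). PCSK1 (at least 27.2-fold, adjusted p = 0.00217) and SCG5 (1.55, adjusted p = 0.00942) were testis-higher, and the part of these cells was not tested. PTPRR, a MAP kinase-binding receptor related to PTPN5, was dim with overlapping pools (3.59 and 4.12 in ovary and 2.30 and 3.60 in testis, -0.91, adjusted p = 0.421). With a floor at background adjusted p for PTPRG was 0.0506. The calls of PTPRT and PTPRJ were lost on omission of testis pool 1 (adjusted p = 0.0549 and 0.148) or testis pool 2 (0.0542 and 0.147). The calls of PTPRM and PTPRZ1 were lost on omission of ovary pool 1 (adjusted p = 0.065 and 0.0653), ovary pool 2 (0.0732 and 0.0594) or testis pool 2 (0.0513 and 0.0519). The call of PTPRG was lost on omission of ovary pool 1 (adjusted p = 0.0541), testis pool 1 (0.177) or testis pool 2 (0.143).

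**Figure D4:**
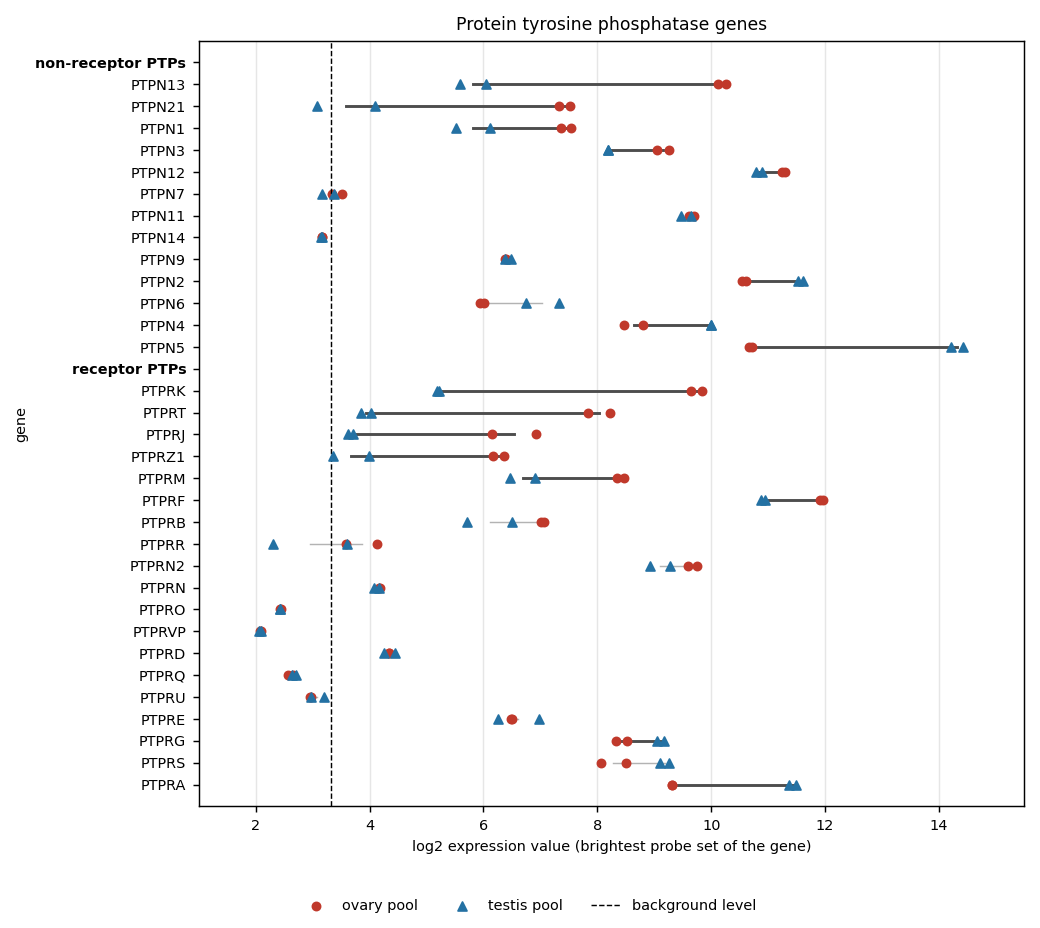
Points show the log2 value of each PTP gene (vertical axis, grouped and sorted by difference) in each ovary pool (red circles) and testis pool (blue triangles), with lines between the organ means, thick where called, and a dashed line at the background level of log2 3.32. PTPRK, PTPN13 and PTPRT have their ovary pools far to the right, and PTPN5 has its testis pools at log2 14.21 and 14.43.

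Several members are measured by more than 1 probe set, and these did not always give the same result. Of 62 genes with several probe sets, 13 had all of them called in 1 direction and 4 had probe sets called in both. The 4 were PPP1R13B, PPP1R8, PPP4R3B and PTPRT. For PPP1R8, the 2 brightest by mean disagreed, with log2 9.47 and 9.51 in ovary and 8.87 and 8.94 in testis (-0.58, adjusted p = 0.00606) against log2 7.69 and 7.51 in ovary and 10.13 and 10.17 in testis (2.55, adjusted p = 0.00203), and the third gave -0.79, adjusted p = 0.0342. For PPP4R3B, the third probe set was higher in testis, with log2 8.70 and 8.59 in ovary and 9.57 and 9.80 in testis (1.04, adjusted p = 0.0146), and the second lower, with -0.16, adjusted p = 0.0329. For PTPRT, a dim probe set below background in ovary was higher in testis, with log2 2.53 and 2.56 in ovary and 4.29 and 4.40 in testis (1.80, adjusted p = 0.00178), opposite to the brightest one. Over all member probe sets, 41 of 242 were testis-higher and 79 ovary-higher, where 17.4% and 18.2% of all probe sets were, 35.6% in all. The bases differ, since all probe sets include 689 for other sequences and are not limited to those with a gene symbol. Over genes, 23.4% of members were testis-higher and 37.4% ovary-higher, beside 24.3% and 28.7% of all genes. With the probe sets of a gene averaged, PPP1R8 turned to 0.39 (adjusted p = 0.0102), PPP4R3B to 0.11 (0.0495), PPP1R12A to 0.25 (0.0181) and PPP3R1 to 1.18 (0.000855). The transcripts that each probe set matches are not given in sources used here.

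**Figure D5:**
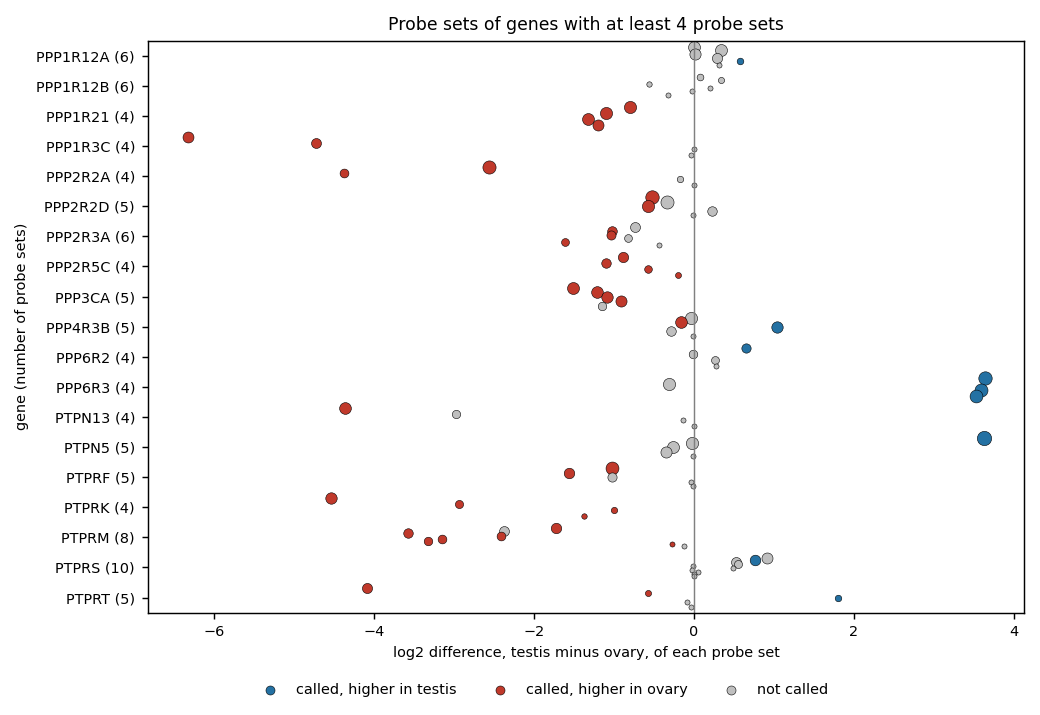
Each point is 1 probe set of a gene with at least 4 probe sets (vertical axis, number of probe sets in brackets), placed at its log2 difference (testis minus ovary), coloured by its call and larger where its brighter organ lies further above background. The probe sets of PPP1R21, PPP2R5C and PTPRK lie on 1 side of 0, while those of PTPN5, PPP6R3 and PTPRT do not.

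Genes around these phosphatases were taken from lists of their substrates, relatives and partners. Of 9 measured MAP kinase genes, the substrates of the classical DUSPs, 3 were ovary-higher and 2 testis-higher, with a median of -0.02. As shares, these were 33.3% and 22.2%, beside 28.7% and 24.3% of all genes. MAPK8, which encodes JNK1, was 17-fold higher in ovary (9.86 and 10.06 in ovary and 6.05 and 5.70 in testis, -4.09, adjusted p = 0.00298), as was the p38 gene MAPK12 (-1.25, adjusted p = 0.00321) and, by a small step, MAPK9 (-0.32, adjusted p = 0.0138). MAPK15, an atypical kinase, was below background in ovary and at least 10.5-fold brighter in testis (adjusted p = 0.00235), and MAPK4 differed by 0.93, adjusted p = 0.00132. MAPK14, the main p38 gene, was not called (11.50 and 11.48 in ovary and 11.51 and 11.46 in testis, -0.01, adjusted p = 0.932). The call of MAPK12 was lost on omission of testis pool 2 (adjusted p = 0.0524). The call of MAPK9 was lost on omission of ovary pool 1 (adjusted p = 0.0638), testis pool 1 (0.103) or testis pool 2 (0.109).

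Of 38 other protein phosphatase genes, 11 were testis-higher and 15 ovary-higher (median -0.03). As shares, these were 28.9% and 39.5%, beside 24.3% and 28.7% of all genes. Toward testis stood PTPDC1 (4.04 and 3.13 in ovary and 9.77 and 9.88 in testis, 6.24, adjusted p = 0.00556), with 1 of 2 ovary pools above background. CDC14B, a phosphatase of mitotic exit in yeast, followed (6.07 and 5.76 in ovary and 12.06 and 12.12 in testis, 6.18, adjusted p = 0.00128), then EYA2 (at least 6.75-fold, adjusted p = 0.00461) and PPM1L (2.93, adjusted p = 0.00797). Toward ovary stood the magnesium-dependent phosphatases PPM1E (-2.75, adjusted p = 0.00139) and PPM1J (-2.63, adjusted p = 0.0071), the AKT phosphatase PHLPP1 (-2.34, adjusted p = 0.00549) and PPM1M (-1.97, adjusted p = 0.000541). The calls of PTPDC1, PPM1L and PHLPP1 were lost on omission of testis pool 1 (adjusted p = 0.0805, 0.0989 and 0.0808) or testis pool 2 (0.0824, 0.0941 and 0.0806).

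Partners and inhibitors of PP1, PP2A and calcineurin went both ways, with 11 of 33 higher in testis and 10 in ovary (median 0.04). As shares, these were 33.3% and 30.3%, beside 24.3% and 28.7% of all genes. The calcineurin inhibitors RCAN1 (6.97 and 7.03 in ovary and 11.04 and 11.14 in testis, 4.09, adjusted p = 0.000631) and RCAN2 (3.31, adjusted p = 0.00352) were higher in testis, as was SGO2 (4.39, adjusted p = 0.00281), which holds PP2A at meiotic centromeres, and BOD1 (2.04, adjusted p = 0.00156), a PP2A inhibitor of the kinetochore. Higher in ovary were STRIP2 (11.64 and 11.78 in ovary and 5.84 and 5.60 in testis, -5.99, adjusted p = 0.00112), part of a PP2A complex with striatins, and LCMT1 (-4.32, adjusted p = 0.00121), which methylates the PP2A catalytic subunit. So were ENSA (-2.02, adjusted p = 0.0074), a PP2A inhibitor of mitosis, and ANP32A (-1.15, adjusted p = 0.0145). RCAN1 and RCAN2 thus lay on the testis side, where the calcineurin catalytic genes PPP3CA and PPP3CB were lower by their brightest probe sets. The calls of PPP3CA and PPP3CB were lost without either testis pool, and 1 of 2 PPP3CB probe sets was called. For the calcineurin B gene PPP3R1, the second probe set was higher in testis, as given above. A link between these genes was not tested. The calls of SGO2, ENSA and ANP32A were lost on omission of testis pool 1 (adjusted p = 0.0523, 0.0566 and 0.139) or testis pool 2 (0.0546, 0.0652 and 0.131).

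Of 16 measured ligand genes of receptor PTPs, 3 were testis-higher and 5 ovary-higher (median -0.26). As shares, these were 18.8% and 31.2%, beside 24.3% and 28.7% of all genes. PTN, which encodes pleiotrophin, a ligand of PTPRZ1, was 4.64-fold higher in testis (8.68 and 8.99 in ovary and 10.97 and 11.12 in testis, 2.21, adjusted p = 0.00641). Its receptor gene PTPRZ1 was called in the opposite direction by 1 of 2 probe sets, with testis values near background (3.99 and 3.36). The PTPRZ1 call was lost without either ovary pool or without testis pool 2. MDK, the midkine gene, was not called (-0.58, adjusted p = 0.318). CNTN4 (2.55, adjusted p = 0.0104), a contactin, and IL1RAPL2 (1.88, adjusted p = 0.011) were higher in testis. SLITRK4, a synaptic adhesion gene, was higher in ovary (10.63 and 10.48 in ovary and 3.27 and 4.18 in testis, -6.83, adjusted p = 0.00491), with 1 of 2 testis pools above background. IL1RAP (at least 10.2-fold, adjusted p = 0.000476), CNTN3 (at least 3.22-fold, adjusted p = 0.00179) and SLITRK2 (-2.35, adjusted p = 0.011) followed. The calls of PTN, CNTN4 and SLITRK2 were lost on omission of testis pool 1 (adjusted p = 0.0768, 0.111 and 0.0716) or testis pool 2 (0.0826, 0.114 and 0.0841). The call of IL1RAPL2 was lost on omission of ovary pool 1 (adjusted p = 0.0524) or ovary pool 2 (0.0526).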

How the data were processed

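The files hold log2 expression values per probe set, deposited by the authors for 4 arrays. The submitters' processing notes list GCRMA and MAS5 and give neither a role nor a version, and affyPLM checks are recorded per the series' design text. The deposited columns have near-equal quantiles, and no further normalization was applied. Of the probe sets, 153 controls were dropped and 38382 entered the fit, of which 689 stand for other sequences. The genome build of the array design is not stated in what was used here.

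The organs were compared with the limma package (version 3.58.1, R 4.3.3), using lmFit followed by eBayes. Tests were two-sided, p-values were adjusted after Benjamini and Hochberg across the 38382 probe sets, and the threshold was 0.05. The fit had 2 residual and 0.741 prior degrees of freedom. It was tested on simulated data. Exact permutation of the pools cannot go below p = 0.333, and precision is limited by the number of arrays. Genes were named from the platform annotation, and all 107 member genes carried the same symbol in a gene table of assembly GRCg7b. A probe set with several symbols, one of them a member's, was left unnamed (1 probe set). Where both pools of an organ lay at or below background, the fold is given as "at least", from the brighter organ's mean against the background level, which rests on probe sets recognised by name alone. Apart from ranking the probe sets of a gene and setting them against background, levels were not compared between probe sets.

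The members and lists were chosen with earlier results of these data known. Values by pool are given for the catalytic subunits, the classical MAP kinase phosphatases, up to 8 called genes per class and direction by size, and genes with probe sets called in both directions, with other members named beside them. Listed genes outside the classes were named for up to 4 calls per direction, with the cell markers, MAPK14 and MDK chosen after their values were seen. Alternatives covered a filter on dim probe sets (above background on at least 2 arrays), variance moderation, normalization, a floor at background, the pool number as a block, each pool left out, and averaged probe sets. Pools with the same number share only that number. With a pool left out, the lone pool of that organ is assumed to vary like the pools of the other. No sequences are shown, since none were used here.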

Additional observations from a re-analysis of the deposited data

How the results depend on the processing

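Of 65 called members, many lost the call when a pool was left out, as given by gene above. How often this happens over all called genes is not given here. With a pool left out, all probe sets gave 4053 to 6007 testis-higher and 3734 to 6449 ovary-higher calls. The counts were then 4 to 6 testis-higher and 7 to 11 ovary-higher DUSP, 6 to 11 and 9 to 18 PPP, and 4 to 5 and 5 to 6 PTP genes, and the medians ran from -0.05 to -0.02 for DUSP, from -0.21 to -0.021 for PPP and from -0.21 to -0.011 for PTP genes. With the pool number as a block, 5 and 10 DUSP, 10 and 17 PPP and 4 and 7 PTP genes were testis-higher and ovary-higher. All probe sets then gave 5506 testis-higher and 5874 ovary-higher calls, against 6666 and 7000 in the reported fit. Of the members, 14 called ones missed the threshold, and 2 others, PPP1CB and PPP2R3A, passed it. The deviations of pools with the same number correlated at 0.052 across probe sets, so that the numbers were not taken to pair the samples. The medians were -1.86 (DUSP), -0.23 (PPP) and -0.42 (PTP) with dim probe sets left out, which removes members at background. They were -0.11 (DUSP), -0.13 (PPP) and -0.14 (PTP) with median centring, which shifts the difference of every probe set by the same amount. The DUSP median was 0 with a floor at background, which sets the difference of members at background in all pools to 0. With probe sets averaged it was -0.063, and the cause of that was not tested. Averaging also turned PPP1R8 (0.39), PPP4R3B (0.11), PPP1R12A (0.25) and PPP3R1 (1.18). Quantile normalization changed no call of a member. Of members not called in the reported fit, 23 changed sign in a setting that did not call them either, with reported differences of at most 0.341 in size. The limit of measurement is the background level, at or below which 15 members lay in all pools.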
